A study of Homo sapiens with 4 samples.

Results

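The SLC25 genes encode the mitochondrial carriers, the membrane proteins that move metabolites, nucleotides and cofactors across the inner membrane of the mitochondrion. The members were all genes of the array whose symbol is SLC25A followed by a number, with the brightest transcript cluster standing for a gene that had several. This gave 48 of 25847 genes, and 9 of the 48 had more than 1 cluster. They were read in the established cell line Hut78, which derives from a cutaneous T-cell lymphoma. There were 2 arrays of untreated cells, called control, and 2 of cells kept in ribavirin, a guanosine analogue used against viruses, at 50 µM for 120 h. All 4 arrays came from the same line grown in RPMI with serum, and the labels give neither a time for the control nor separate cultures. The p-values therefore measure only the spread between these arrays, which may be technical.

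Each carrier is built from repeats of a pair of membrane helices, and most work as exchangers that bring in a substrate for one sent out. ADP/ATP carriers supply the cytosol with ATP, and others feed the citric acid cycle, the malate-aspartate shuttle, fatty acid oxidation, haem synthesis and mitochondrial folate. All are nuclear-encoded, and nearly all reach the inner membrane through the TIM22 import route. In dividing lymphocytes the carriers of citrate, aspartate, glycine and folate link mitochondria to the synthesis of lipids and nucleotides.

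Values are log2 probe set summaries, so a difference of 1 is a factor of 2 on the deposited scale. The level of a gene was read only against the array's background probe sets, the highest of which had a mean of 5.20 over control and of 4.95 over ribavirin arrays, and never against another gene. Gene medians were 4.20 to 4.30 over the 4 arrays. Of 10 T-cell markers 8 lay above that range in control, among them CD3D, CD3E and CD3G, while CD2 and CD28 did not. With ribavirin 7 of these 10 fell and none rose, where 5.88% of all genes fell and 9.34% rose. Of all genes above the background range in both groups, 11.3% fell and 21.4% rose. The summed level of the 10 T-cell markers went from 13.60 and 13.55 to 12.83 and 12.83 on the log2 scale. Of 6 epithelial markers 4 fell (KRT8, ESRP1, CDH1 and KRT18, the last within the background range), and their sum went from 10.31 and 10.23 to 9.69 and 9.61. EPCAM, of the same 6, lay above background and higher in both ribavirin arrays, with a change of 0.42 that did not pass (limma adjusted p = 0.073). Of 6 B-cell markers 2 fell (CD79A and CD79B), and their sum went from 11.45 and 11.27 to 10.20 and 10.03. MS4A1 and PAX5 were in the background range, as were 5 of 6 myeloid markers, whose sum was 6.63 and 6.76 in control and 6.47 in both ribavirin arrays. The part of these markers' changes in the results below was not tested.

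With ribavirin, 9 SLC25 genes rose, 3 fell and 36 did not pass the threshold (limma across all genes, Benjamini-Hochberg adjusted p under 0.05). The rises were of the ADP/ATP carriers SLC25A4, SLC25A5 and SLC25A6, the glutathione-class SLC25A40, the glycine carrier SLC25A38, the folate carrier SLC25A32, the acylcarnitine carrier SLC25A20, SLC25A30 and SLC25A46. The falls were of the ATP-Mg/phosphate carrier SLC25A23, the aspartate/glutamate carrier SLC25A13 and the citrate carrier SLC25A1. In whole-culture RNA, fewer cells of a kind and less RNA per cell cannot be told apart.

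The 9 rises are 18.8% of the members, against 9.34% of all genes that rose, and the 3 falls are 6.25% against 5.88%. The family was also bright: 29 of 48 members (60.4%) had both group means above the background range, against 37.3% of all genes. All 12 members past the threshold were among these 29. Of the 29, 31.0% rose and 10.3% fell, where 21.4% and 11.3% of all genes above that range did. Either way 15.2% of all genes passed.

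The median log2 change of the 48 members was 0.04, against -0.05 over all genes. It was 0.19 over the 29 members above the background range, against 0.06 over all genes above it. In 33 of the 48 (68.8%) both ribavirin arrays lay on one side of both control arrays, against 59.9% of all genes. Among those above the background range the share was lower in the family, at 69.0% of members against 76.5% of all genes. Both ribavirin arrays lay above in 19 of the 48 members, where 24.1% of all genes did so, and below in 14, where 35.8% did. At least 1.5-fold changes past the threshold were 1 rise (5.13% of all genes) and 2 falls (2.26%). An unadjusted p under 0.05 was reached by 23 members (47.9%), against 29.5% of all genes. Among those above the background range it was reached by 65.5% of members and 52.8% of all genes.

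These calls rested on few arrays. With either control array left out no member passed by limma. Without ribavirin replicate 1 only SLC25A4 and SLC25A23 passed, and without ribavirin replicate 2 those and SLC25A40 and SLC25A1. Centring each array on the median of the genes above background, an alternative added after the data were seen, shifted the median of all genes by -0.16 and gave 3 rises and 7 falls among members (6.88% and 20.5% of all genes). The 3 rises were SLC25A4, SLC25A6 and SLC25A40, and the falls gained SLC25A39, SLC25A15, SLC25A29 and SLC25A35. Quantile normalization ended the calls of SLC25A5, SLC25A32, SLC25A20, SLC25A30 and SLC25A46, and so did the block for the array number. With dim genes left out, 15 members rose and 3 fell (24% and 14% of the genes in that fit). The 12 members past the threshold kept their direction under all 14 alternatives, but most of these could not reverse it. The variance settings, the block for the array number, the p thresholds and leaving out dim genes do not alter a change. Groups that do not overlap also keep their direction when 1 array is left out. Only quantile normalization, centring and averaged clusters could have reversed a direction.

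**Figure D1:**
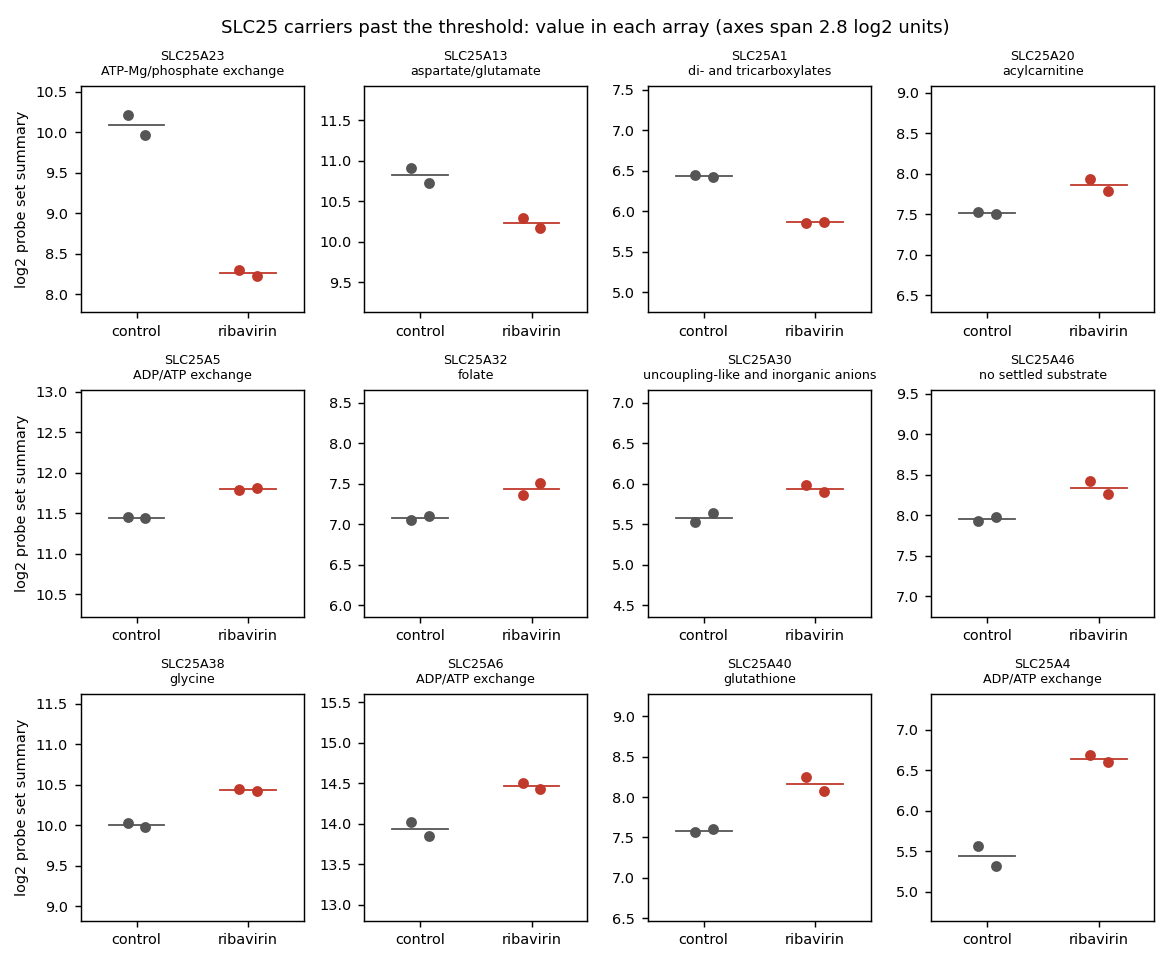
Log2 probe set summary of the 12 SLC25 carriers past the threshold, 1 panel per gene; points are the 2 control (grey) and 2 ribavirin (red) arrays, lines are group means, and every vertical axis spans the same range. In no panel do the groups overlap, and the gap is widest for SLC25A23 (-1.83) and SLC25A4 (1.21).

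The ADP/ATP carriers, which exchange cytosolic ADP for ATP made in the matrix, rose in 3 of 4 members. Of all genes 9.34% rose, and of those above the background range in both groups 21.4%. SLC25A4, the form known from heart and muscle (TC04000902.hg.1), read 5.56 and 5.31 in the control arrays and 6.69 and 6.60 in the ribavirin arrays. The control arrays lay just above the background range and the ribavirin arrays well clear of it. The log2 change was 1.21 (SE 0.11, limma adjusted p = 0.0043), or 2.31-fold, the only rise of the family past 1.5-fold. A second cluster of the gene sat in the background range at 3.04 and 2.75, and averaging both clusters gave 0.46.

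SLC25A5, the form of dividing cells (TC0X000586.hg.1), read 11.45 and 11.44 in control and 11.79 and 11.81 with ribavirin. The arrays of each group nearly coincided, and the change was 0.36 (SE 0.07, adjusted p = 0.0284 by limma). A dimmer second cluster, not tested, had means of 6.04 and 6.76. SLC25A6, a form found in most tissues (TC0X000798.hg.1), read 14.02 and 13.85 in control and 14.51 and 14.43 with ribavirin. Its groups did not overlap either, with a change of 0.54 (SE 0.09, limma adjusted p = 0.0188), and its other clusters differed by 0.53 and 0.53. The first of these is annotated to the same transcript as the kept cluster, so its value is not independent. SLC25A31, a form of the testis, stayed in the background range at 3.41 and 3.28 against 3.22 and 3.42. These genes are close copies of each other, and whether their probes share signal was not tested.

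The promoter of SLC25A4, the carrier that rose most, is shown with those of SLC25A40, SLC25A23 and SLC25A13, so that the largest 2 rises and the largest 2 falls can be set side by side. The sequences are RefSeq's on GRCh38.p14, run from 250 bases before to 50 after the gene's start, and have matches to searched motifs in capitals. SLC25A4 lies at chr4:185143016-185143315 (plus strand), SLC25A40 at chr7:87876311-87876610 (minus), SLC25A23 at chr19:6459743-6460042 (minus) and SLC25A13 at chr7:96322049-96322348 (minus).
SLC25A4: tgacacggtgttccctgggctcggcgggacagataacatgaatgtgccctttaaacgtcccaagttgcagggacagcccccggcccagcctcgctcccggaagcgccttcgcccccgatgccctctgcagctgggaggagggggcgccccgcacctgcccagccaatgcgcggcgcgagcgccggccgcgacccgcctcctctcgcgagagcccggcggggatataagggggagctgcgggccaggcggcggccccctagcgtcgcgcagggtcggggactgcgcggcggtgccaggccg
SLC25A40: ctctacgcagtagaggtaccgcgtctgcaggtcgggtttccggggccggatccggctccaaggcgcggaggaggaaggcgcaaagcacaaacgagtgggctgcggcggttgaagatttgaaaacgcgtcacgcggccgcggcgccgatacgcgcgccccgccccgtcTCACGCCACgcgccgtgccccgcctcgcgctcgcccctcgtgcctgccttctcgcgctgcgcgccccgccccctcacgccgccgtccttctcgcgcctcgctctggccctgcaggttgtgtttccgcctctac
SLC25A23: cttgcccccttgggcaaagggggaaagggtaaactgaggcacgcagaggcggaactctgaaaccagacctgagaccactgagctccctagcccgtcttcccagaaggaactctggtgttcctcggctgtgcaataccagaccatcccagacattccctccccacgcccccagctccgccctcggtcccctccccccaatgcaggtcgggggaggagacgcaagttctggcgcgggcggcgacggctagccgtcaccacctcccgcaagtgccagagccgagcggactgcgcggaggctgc
SLC25A13: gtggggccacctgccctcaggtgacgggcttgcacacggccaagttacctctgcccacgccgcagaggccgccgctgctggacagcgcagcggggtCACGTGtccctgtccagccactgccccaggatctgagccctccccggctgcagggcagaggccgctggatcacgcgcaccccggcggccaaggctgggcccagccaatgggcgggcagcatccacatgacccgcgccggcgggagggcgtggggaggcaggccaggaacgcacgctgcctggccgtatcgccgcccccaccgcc

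All 4 windows were rich in G and C, at 73.3%, 71.3%, 65.7% and 74% in that order, against a median of 58.7% over all promoters. They held 36, 47, 20 and 27 CG pairs, against a median of 14. The capitals in SLC25A40 mark TCACNCCAC, an element of sterol-responsive promoters, and those in SLC25A13 mark CACGTG, the E-box.

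Both strands of 50 promoters of 40 matched members were searched for 6 motifs, and the shares over 34961 promoters are given for comparison. The E-box was in 18% of the member promoters and in 7.27% of all. It was found for 9 members, 3 of them past the threshold: SLC25A13, which fell, and SLC25A38 and SLC25A46, which rose. Of all 48 members 9 rose and 3 fell, and 15.2% of all genes passed. Whether the E-box goes with a change was not tested. TCACNCCAC was in 2% of member promoters (SLC25A40) and 1.13% of all. TGATGNAA, the element bound by ATF4 with C/EBP factors, was in 2% (SLC25A11) and 3.62% of all. AAGATGGCG, a core of YY1 sites, was in 2% (SLC25A3) and 1.76% of all. CGCATGCG, a core of NRF1 sites, and TCAAGGTCA, a site of oestrogen-related receptors, were in none of the 50, and in 2.03% and 0.355% of all. SLC25A4 and SLC25A23 matched none of the 6.

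**Figure D2:**
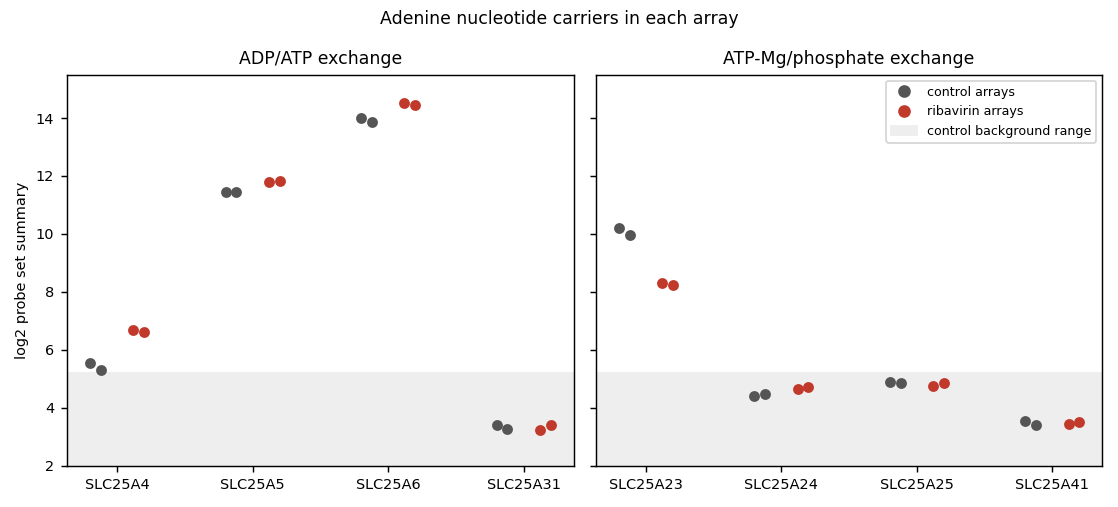
Log2 probe set summary of the ADP/ATP and ATP-Mg/phosphate carriers in each control (grey) and ribavirin (red) array; the band is the range of the control background probe sets, and levels of different genes are not comparable. SLC25A4, SLC25A5 and SLC25A6 are higher and SLC25A23 lower with ribavirin, while SLC25A31, SLC25A24, SLC25A25 and SLC25A41 lie in the band.

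The ATP-Mg/phosphate carriers, exchangers that set the adenine nucleotide pool of the matrix, changed in 1 of 4 members, where 15.2% of all genes did. SLC25A23 (TC19001097.hg.1) read 10.22 and 9.97 in control and 8.30 and 8.22 with ribavirin. Both ribavirin arrays lay far below both control arrays and well above background. The log2 change of -1.83 (SE 0.11, limma adjusted p = 0.00237), a 3.57-fold fall, was the largest change of the family, and ranged from -1.99 to -1.71 over the alternatives.

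Its relatives were in the background range in both groups. SLC25A24 read 4.39 and 4.46 in control and 4.64 and 4.73 with ribavirin, a log2 change of 0.26 (limma adjusted p = 0.0924). SLC25A25 read 4.88 and 4.86 against 4.76 and 4.84, a change of -0.07 with a 95% interval from -0.25 to 0.12. SLC25A41, whose gene neighbours SLC25A23, read 3.54 and 3.40 against 3.44 and 3.51. Its change was 0.01 with an interval from -0.20 to 0.22. The difference between SLC25A23 and its relatives was not tested, and a relative at background could show little fall.

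The phosphate carrier SLC25A3, which brings in the phosphate for ATP synthesis, read 11.25 and 11.27 in control and 11.54 and 11.51 with ribavirin. Its groups were apart, but the change of 0.26 (SE 0.07) did not pass (limma adjusted p = 0.0653). SLC25A33 and SLC25A36 carry pyrimidine nucleotides into mitochondria for RNA and DNA synthesis. SLC25A33 read 10.15 and 10.11 against 10.34 and 10.29, and SLC25A36 averaged 5.96 in control and 6.22 with ribavirin. Both had ribavirin above control in every array and neither passed, with changes of 0.19 and 0.26 (limma adjusted p = 0.153 and 0.089).

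The aspartate/glutamate carriers export mitochondrial aspartate in the malate-aspartate shuttle, which moves reducing equivalents from cytosolic NADH into mitochondria. SLC25A13, also called citrin (TC07003070.hg.1), read 10.92 and 10.73 in control and 10.29 and 10.18 with ribavirin. It fell by 0.59 on the log2 scale (SE 0.10, limma adjusted p = 0.0184), or 1.51-fold. The kept cluster is annotated to a noncoding transcript, and the second cluster, of a coding transcript, differed in the same direction by -0.47, which is under 1.5-fold. The relative SLC25A12, also called aralar, read 6.11 and 6.25 against 6.22 and 6.21, with overlapping groups and a change of 0.03 (95% interval from -0.18 to 0.24).

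The shuttle's other carrier, SLC25A11, exchanges malate for oxoglutarate. It read 9.45 and 9.24 in control and 9.73 and 9.64 with ribavirin, a change of 0.34 that did not pass (limma adjusted p = 0.0846). Of the 4 shuttle enzymes 2 rose and 1 fell, where 9.34% and 5.88% of all genes did. The cytosolic aspartate aminotransferase GOT1 read 8.20 and 8.12 in control and 9.40 and 9.28 with ribavirin, a rise of 1.18. The cytosolic malate dehydrogenase MDH1 rose by 0.43. The mitochondrial forms lay lower with ribavirin, MDH2 with a fall of 0.36 and GOT2 with a change of -0.32 that did not pass (limma adjusted p = 0.0746). Thus both cytosolic enzymes rose, while of the mitochondrial enzymes and the shuttle's carriers MDH2 and SLC25A13 fell. GOT2, SLC25A12 and SLC25A11 did not pass, with changes of -0.32, 0.03 and 0.34. The difference between the cytosolic and mitochondrial forms was not tested. With either control array left out none of these passed. The SLC25A13, MDH1 and MDH2 calls also ended with either ribavirin array left out. Quantile normalization and centring on genes above background ended the MDH1 call. Centring arrays on their median and the block for the array number ended the MDH2 call.

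Among carriers of di- and tricarboxylic acids 1 of 4 fell, where 5.88% of all genes did. SLC25A1 exports citrate, the carbon source of cytosolic fatty acid and sterol synthesis. Its kept cluster (TC22001214.hg.1) read 6.45 and 6.42 in control and 5.85 and 5.87 with ribavirin. The groups were tight and apart, and the change was -0.57 (SE 0.07) at a limma adjusted p = 0.00811. This cluster is annotated to a noncoding transcript that was not matched to RefSeq's gene table, and the cluster of the coding transcript differed by -0.23, from 6.25 to 6.02. Their average, -0.40, also passed. SLC25A10, the malate and succinate carrier, read 7.61 and 7.47 against 7.64 and 7.50, with a change of 0.03 and overlapping groups. SLC25A21, the oxoadipate carrier, was in the background range in both groups.

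**Figure D3:**
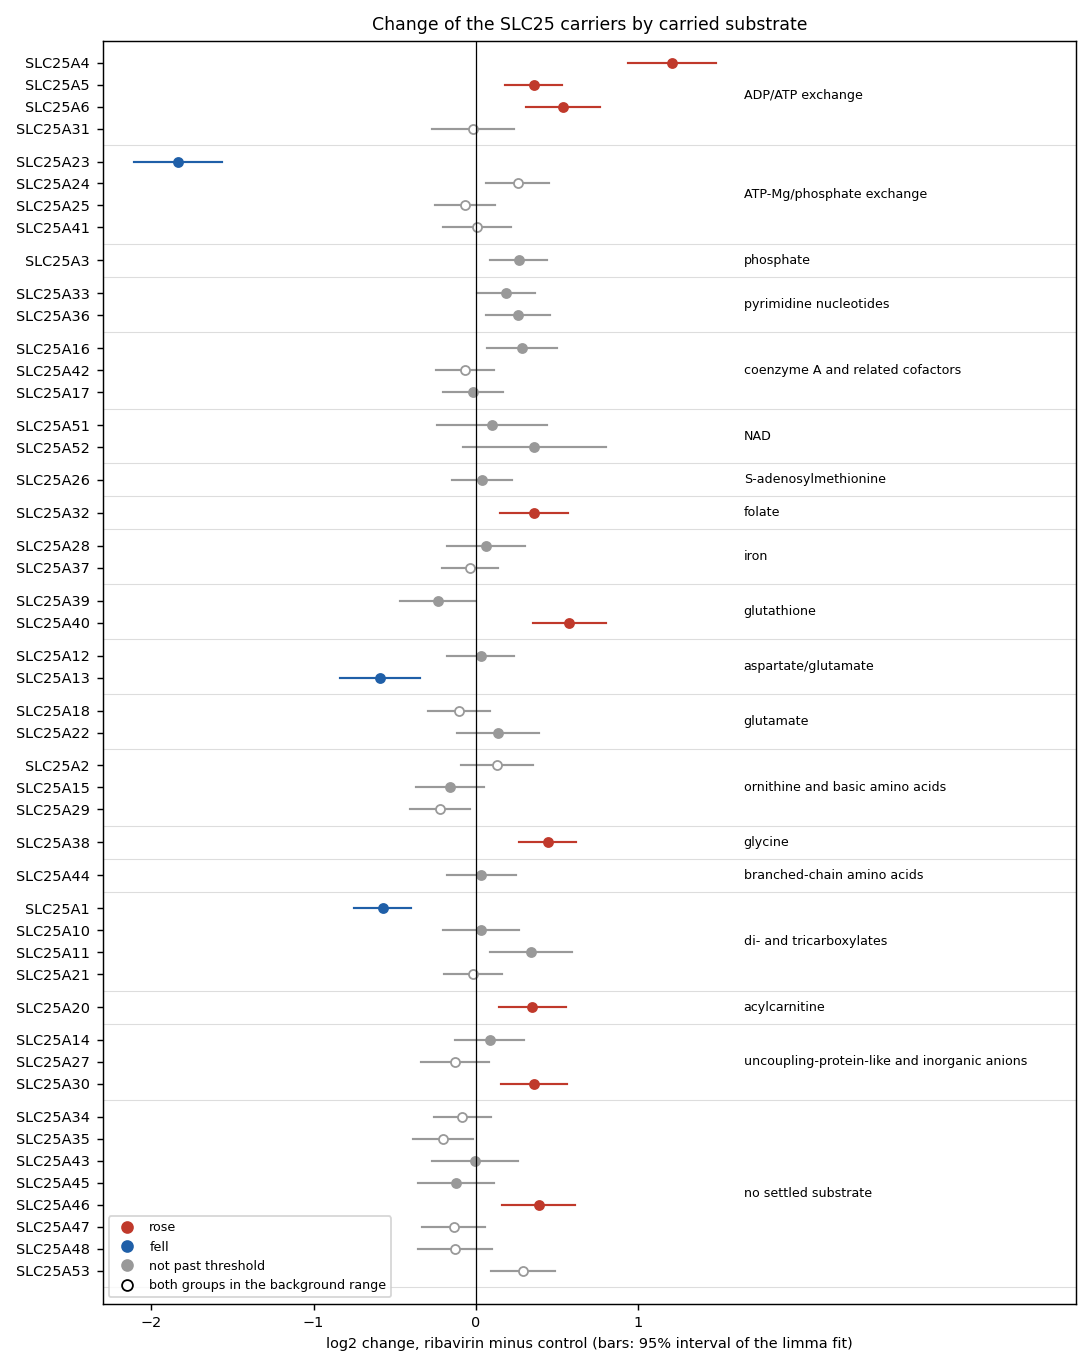
Log2 change (ribavirin minus control) of the SLC25 carriers, less 1 not reported here, grouped by carried substrate, with 95% intervals of the limma fit; red rose, blue fell, grey did not pass, and open points had both groups in the background range. The 9 rises are spread over 7 classes, with 3 in the ADP/ATP class, and the 3 falls over 3 classes.

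Of 9 amino acid carriers 1 rose and 1, SLC25A13, fell, where 9.34% and 5.88% of all genes did. SLC25A38 imports glycine for the first step of haem synthesis, and its loss causes a sideroblastic anaemia. The gene (TC03000201.hg.1) read 10.02 and 9.98 in control and 10.45 and 10.43 with ribavirin. It rose by 0.44 (SE 0.07, limma adjusted p = 0.0168), with each group's arrays close together. The glutamate carrier SLC25A22 had a change of 0.14 with overlapping groups, and its relative SLC25A18 was at background. The ornithine carrier of the urea cycle SLC25A15 read 7.23 and 7.10 against 7.04 and 6.98, a change of -0.16 that did not pass (limma adjusted p = 0.282). SLC25A2 and SLC25A29, which carry ornithine and basic amino acids, were in the background range (0.13 and -0.22). SLC25A44, a carrier of branched-chain amino acids, changed by 0.03 with an interval from -0.18 to 0.25.

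Of 12 carriers of cofactors, iron and glutathione 2 rose (16.7%, against 9.34% of all genes) and none fell (5.88% of all genes). Of the 12, 8 lay above the background range in both groups, where 21.4% of all genes rose. SLC25A32 brings folate into mitochondria for the one-carbon units made there from serine. It (TC08001507.hg.1) read 7.06 and 7.11 in control and 7.37 and 7.51 with ribavirin. The rise was 0.36 (SE 0.08), close to the threshold at a limma adjusted p = 0.0476.

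SLC25A39 imports glutathione into mitochondria, and SLC25A40 is its close relative. SLC25A40 (TC07001580.hg.1) read 7.56 and 7.60 in control and 8.25 and 8.07 with ribavirin, a rise of 0.58 (SE 0.09, limma adjusted p = 0.0151). SLC25A39 (TC17001579.hg.1) read 13.01 and 12.85 in control and 12.65 and 12.74 with ribavirin. Its ribavirin arrays lay below both controls, with a change of -0.24 that did not pass (limma adjusted p = 0.159), and its second cluster differed by -0.27. The relatives thus lay on opposite sides of 0, and the difference between their changes was not tested.

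The other cofactor carriers did not pass. SLC25A16, linked to coenzyme A uptake, read 5.78 and 5.64 against 6.04 and 5.95, a change of 0.28 (limma adjusted p = 0.0911). Its ribavirin arrays lay above the controls. The coenzyme A carrier SLC25A42 was at background, and the peroxisomal SLC25A17 differed by -0.02 (95% interval from -0.20 to 0.17). The S-adenosylmethionine carrier SLC25A26 differed by 0.04 and the NAD carrier SLC25A51 by 0.10, both in kept clusters annotated to noncoding transcripts. SLC25A52, a copy of SLC25A51, differed by 0.36 (limma adjusted p = 0.246), with a control mean of 5.19 in the background range. SLC25A52 had the widest spread of the family, at 5.79 and 5.31 in the ribavirin arrays. The mitoferrins SLC25A28 and SLC25A37, which import iron, differed by 0.06 and -0.04 with control means in the background range.

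SLC25A20 takes acylcarnitines into the matrix, the middle step of the carnitine shuttle for fatty acid oxidation. It (TC03001390.hg.1) read 7.53 and 7.50 in control and 7.93 and 7.79 with ribavirin. The rise of 0.35 (SE 0.08) was nearest to the threshold among the calls (limma adjusted p = 0.0491) and ended with robust variance moderation. Of 5 other shuttle genes none rose (9.34% of all genes) and 1 fell (5.88% of all genes). That was CPT1A, the outer-membrane enzyme that makes acylcarnitines, at 10.85 and 10.69 in control and 10.25 and 10.00 with ribavirin, a log2 change of -0.65 (limma adjusted p = 0.0231). CPT2, which turns acylcarnitine back to acyl-CoA in the matrix, had a change of -0.22 and did not pass. CPT1B, CPT1C and CRAT were at background. The CPT1A call ended with any 1 of the 4 arrays left out.

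SLC25A30, a relative of the uncoupling proteins known as a kidney carrier, read 5.53 and 5.64 in control and 5.98 and 5.90 with ribavirin. It (TC13000634.hg.1) rose by 0.36 (SE 0.08, limma adjusted p = 0.0426). The related SLC25A14 and SLC25A27, best known from brain, had control means in the background range and changes of 0.09 and -0.13.

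Of 8 members with no settled substrate 1 rose, where 9.34% of all genes did. SLC25A46 sits in the outer membrane, where it acts in mitochondrial fission and contacts with other membranes, and is mutated in an optic atrophy with neuropathy. It (TC05000517.hg.1) read 7.92 and 7.98 in control and 8.43 and 8.26 with ribavirin, a rise of 0.39 (SE 0.09, limma adjusted p = 0.0453). SLC25A43 and SLC25A45 lay above background with overlapping groups (-0.01 and -0.12). SLC25A34, SLC25A35, SLC25A47, SLC25A48 and SLC25A53 were in the background range in both groups. Their changes ran from -0.20 for SLC25A35 to 0.29 for SLC25A53, and none passed.

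**Figure D4:**
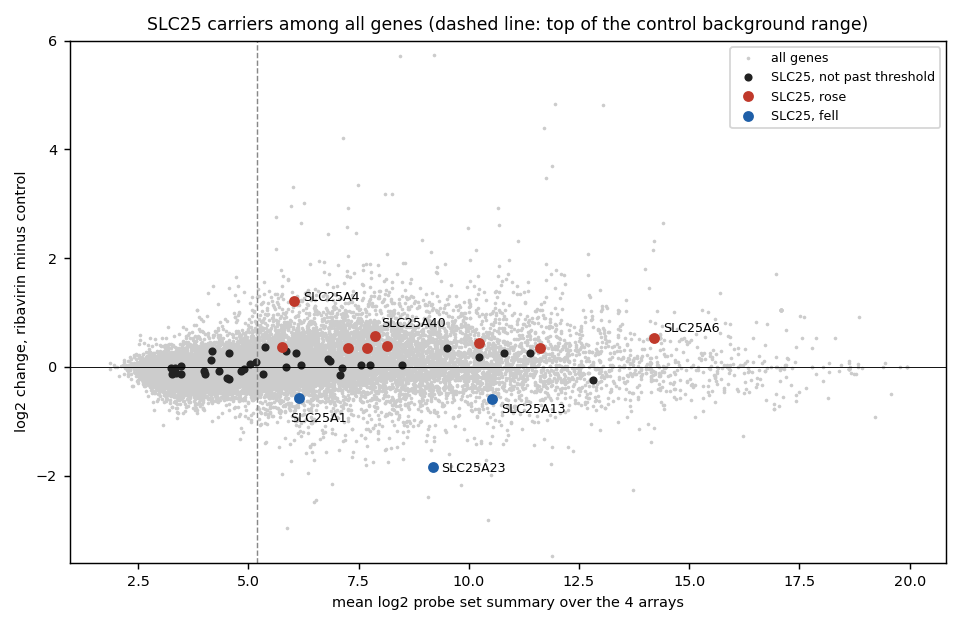
Log2 change against the mean log2 probe set summary over the 4 arrays for all 25847 genes (light grey), with the 48 SLC25 carriers as larger points; the dashed line is the top of the control background range. SLC25A23 (-1.83) lies near the lower edge of the cloud and SLC25A4 (1.21) toward its upper edge, while the other called carriers lie within it.

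Of 15 other mitochondrial transport genes 5 rose (33.3%, against 9.34% of all genes) and none fell (5.88% of all genes). Of the 15, 11 lay above the background range in both groups, where 21.4% of all genes rose. Both subunits of the pyruvate carrier, which feeds glycolytic pyruvate to the citric acid cycle, were among the 5 that rose. MPC1 read 7.08 and 7.08 in control and 8.18 and 7.92 with ribavirin, a rise of 0.97 (limma adjusted p = 0.00658). MPC2 read 8.51 and 8.73 against 9.30 and 9.34, a rise of 0.70 (limma adjusted p = 0.0116). Its kept cluster, 1 of 2, is annotated to a noncoding transcript, and averaging both clusters did not end the call. SFXN2, a sideroflexin, rose by 0.53, and MICU2 and MCU, of the calcium uniporter, by 0.61 and 0.35. The MCU call ended with quantile normalization, with the block for the array number and with centring on genes above background. The uncoupling protein UCP2 differed by -0.16 with overlapping groups, and UCP1 and UCP3 were at background. The carrier-fold outer-membrane proteins MTCH1 and MTCH2 differed by -0.26 and 0.24 and did not pass.

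Of 13 genes of the import route that takes carriers into the inner membrane 1 rose and none fell. The rise is 7.69% of the list, against 9.34% of all genes that rose, and 5.88% of all genes fell. TIMM9, a chaperone of the space between the membranes, read 6.11 and 6.04 in control and 6.73 and 6.66 with ribavirin, a rise of 0.62 (limma adjusted p = 0.00826). Its partner TIMM10 (0.12) and the inner-membrane channel TIMM22 (-0.05) did not pass, and TOMM22 of the outer membrane had a change of -0.31 (limma adjusted p = 0.0691). Of the 10 genes called in the shuttle, transport and import lists, none passed by limma with either control array left out. Without ribavirin replicate 1 there were 2, and without ribavirin replicate 2 there were 4.

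**Figure D5:**
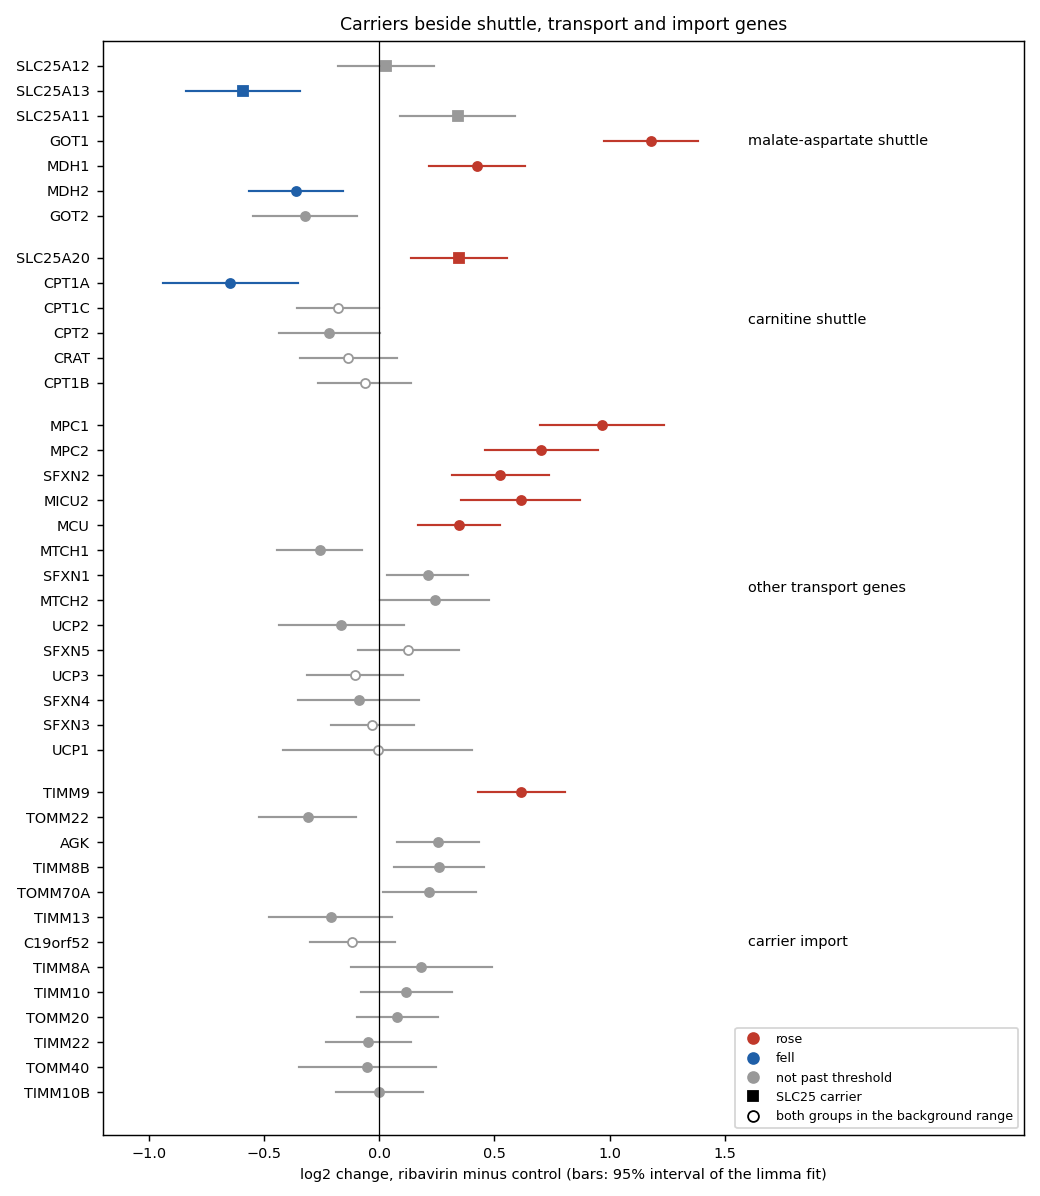
Log2 change (ribavirin minus control) with 95% intervals of the limma fit for shuttle enzymes, other mitochondrial transport genes (less 1 not reported here) and import genes, beside the SLC25 carriers of the same shuttles (squares); red rose, blue fell, grey did not pass, and open points had both groups in the background range. GOT1 (1.18), MPC1 (0.97) and MPC2 (0.70) lie farthest to the right, and CPT1A (-0.65) and SLC25A13 (-0.59) farthest to the left.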

How the data were processed

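RNA of 4 Hut78 samples was hybridised to 1-colour Affymetrix Human Transcriptome Arrays 2.0, per the labels. Values were deposited as log2 summaries per probe set, for which the name of the authors' table gives the method SST-RMA. Affymetrix Expression Console and RMA appear in the submitters' processing notes. The background step is not given in the sources used here. Summaries of this type compress changes near background. The second deposited table held the same log2 values (largest difference 0 over 70523 probe sets).

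Of 67528 transcript clusters, 33444 carried 1 symbol and gave 25847 genes, and all were fitted in R 4.3.3 by limma 3.58.1 (eBayes after lmFit without covariates, two-sided, with 2 residual and 3.19 prior degrees of freedom). Adjusted p-values are over all genes, so no count is adjusted over the list alone. Intervals are 95% intervals of that fit. Groups came from the sample titles. Arrays have no depth, and their number limits the precision. The fit was tested on simulated data with all 25847 genes for ribavirin against control: it called 2 of 50 genes changed 1.25-fold, 39 of those changed 1.5-fold, 48 of those changed 2-fold and all 50 changed 4-fold, and 11 of 25647 unchanged ones. The simulated noise was drawn independently for each gene and array. No shift was shared by the genes of an array, so these counts do not cover errors from such shifts.

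The members were described, with every array given for those past the threshold by at least 1.5-fold and for members of their substrate classes; arrays of other called members were added. In other lists, up to 4 genes with the smallest p were named, and further ones after their values were seen. The members, substrate classes, lists and motifs were chosen with earlier results of these data known. A few genes that entered the counts are not reported here by name. Symbols of 2 import genes were matched through RefSeq synonyms. Alternatives were an intensity trend, robust moderation, quantile normalization, median centring, leaving out dim genes, averaging clusters, a block for the array number, adjusted p thresholds of 0.1 and 0.01, each array left out, and centring on genes above background. No label ties same-numbered arrays, so they were left unpaired.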

Additional observations from a re-analysis of the deposited data

How the results depend on the processing

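Over all genes 3934 passed, and 9 members rose and 3 fell. All-gene counts were 26 to 2001 with each array left out in turn (lowest without control replicate 1), 7089 with arrays centred on the median of genes above background and 1314 at an adjusted p under 0.01. Member rises were 0 to 2 and falls 0 to 2 with each array left out. Without control replicate 1 or control replicate 2 there were 0 of either, without ribavirin replicate 1 there were 1 and 1, and without ribavirin replicate 2 there were 2 and 2. A lone array is assumed there to vary like the other group. Rises numbered 15 with dim genes left out, 16 at an adjusted p under 0.1, 1 at an adjusted p under 0.01, and 3, beside 7 falls, with centring on genes above background (chosen after seeing the data). With the replicate block 4 members rose and 3 fell. Deviations of same-numbered arrays from their group means correlated at 0.05 over genes. With 2 arrays per group this value cannot show whether same-numbered arrays belong together, and no label ties them. Quantile normalization gave 6 rises and 3 falls, with SLC25A5, SLC25A32, SLC25A20, SLC25A30 and SLC25A46 no longer past the threshold and SLC25A24 and SLC25A53 past it. The other alternatives (intensity trend, robust moderation, median centring, averaged clusters) gave 8 to 12 rises and 3 falls. The causes were not tested. SLC25A4 and SLC25A23 passed in all alternatives except those without a control array. None of the 12 members past the threshold changed direction, which only quantile normalization, centring and averaged clusters could have shown. Signal over background limits the 16 members with both groups in the background range.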

Other observations

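Clusters set aside by the brightest-cluster rule gave further values. In SLC25A5 the dimmer cluster differed by 0.72, against 0.36 in the kept one. In SLC25A16 the dimmer clusters differed by -0.11 and -0.05, against 0.28, and lay in the background range. In SLC25A51 the clusters differed by 0.10 and 0.17, and in SLC25A26 by 0.04 and -0.01. None of these gaps was tested.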
